A study of Homo sapiens with 6 samples.

Results

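CCL2 and 9 further genes of the NF-kB pathway (IL6, CXCL1, CXCL8, RELA, RELB, NFKB1, NFKB2, NFKBIA and TNFAIP3) are described here in SH-SY5Y, a human cell line derived from a neuroblastoma. These 10 genes, of 60709 in the count table, were chosen by their measured counts, high for CCL2 and close to 0 for IL6 and CXCL1, so their levels are a description and no test was run on them. The study compared 3 control samples, which received 10 uL of DMSO per well, with 3 samples given 10 uL of DMSO and, in water, fumarate coupled to an Nrf2 peptide. All wells were lysed after 5 h. RNA sequencing counts could be matched by column heading to the control samples only (headings 4, 5 and 6). Samples given the peptide were not analysed, so nothing is said of its effect. The name control rests on those headings being the sample numbers of the labels. If the columns had been numbered afresh, the same libraries could be the treated ones. The labels do not say whether the wells came from separate cultures, so the spread given here may be technical.

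NF-kB is a family of dimeric transcription factors that IkB proteins hold inactive in the cytoplasm. Receptors for TNF, IL-1 and microbial products activate the IKK kinase complex, which marks IkB for degradation and frees dimers such as RELA with the processed product of NFKB1. A separate, noncanonical branch processes the NFKB2 precursor and acts through RELB. Among the known target genes are chemokines and cytokines such as CCL2, CXCL1, CXCL8 and IL6, and also the inhibitors NFKBIA and TNFAIP3, which feed back on the pathway.

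The sequences just before the transcription start of 5 target genes are shown because these genes share a known NF-kB regulation but had very different levels. Capitals mark matches to the NF-kB consensus motif on either strand, or to GGAATTTCC, a shorter string chosen after the sequences were read, which can lie inside a consensus match. Each is 250 bases, read 5′ to 3′ on the gene's strand and ending at the base before the start, from RefSeq on GRCh38.p14. IL6 lies at chr7:22726950-22727199, CXCL1 at chr4:73869143-73869392, CXCL8 at chr4:73740319-73740568 and TNFAIP3 at chr6:137867009-137867258, all on the plus strand. NFKBIA lies at chr14:35404750-35404999 on the minus strand.
IL6: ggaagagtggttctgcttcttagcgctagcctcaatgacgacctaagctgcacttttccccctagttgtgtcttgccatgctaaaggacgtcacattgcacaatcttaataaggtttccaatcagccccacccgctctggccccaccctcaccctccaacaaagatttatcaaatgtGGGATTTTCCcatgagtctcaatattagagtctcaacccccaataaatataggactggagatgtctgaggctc
CXCL1: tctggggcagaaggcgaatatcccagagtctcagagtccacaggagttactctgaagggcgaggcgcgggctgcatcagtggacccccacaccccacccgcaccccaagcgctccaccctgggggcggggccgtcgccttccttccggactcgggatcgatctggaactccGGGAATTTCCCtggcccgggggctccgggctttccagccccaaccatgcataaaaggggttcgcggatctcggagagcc
CXCL8: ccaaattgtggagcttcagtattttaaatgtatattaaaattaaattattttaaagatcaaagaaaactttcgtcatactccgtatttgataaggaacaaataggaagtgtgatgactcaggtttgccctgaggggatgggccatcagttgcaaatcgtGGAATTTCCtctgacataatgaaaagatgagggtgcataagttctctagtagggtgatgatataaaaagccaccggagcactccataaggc
NFKBIA: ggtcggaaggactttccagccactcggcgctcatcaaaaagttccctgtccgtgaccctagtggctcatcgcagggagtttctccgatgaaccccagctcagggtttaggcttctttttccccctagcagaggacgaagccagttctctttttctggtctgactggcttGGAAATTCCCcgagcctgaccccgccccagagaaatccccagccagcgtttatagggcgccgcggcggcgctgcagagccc
TNFAIP3: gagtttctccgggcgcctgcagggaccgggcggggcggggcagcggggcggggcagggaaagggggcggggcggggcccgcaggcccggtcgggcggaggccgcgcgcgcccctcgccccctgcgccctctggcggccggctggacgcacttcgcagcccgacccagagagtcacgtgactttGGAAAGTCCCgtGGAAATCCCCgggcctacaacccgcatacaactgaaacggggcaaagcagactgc

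Promoter windows were found for 8 of the 10 genes, not for CCL2 and RELB. A consensus match was present in at least 1 window of 6 of the 8, namely IL6, CXCL1, NFKB1, NFKB2, NFKBIA and TNFAIP3. Over all 27305 genes with windows, 11.8% had such a match, and 9.96% of the 35116 single windows did. Known NF-kB targets are among the 8 genes, so a higher share follows at least in part from their choice and was not tested. The string GGAATTTCC was found for 4 of the 8 genes (CXCL1, CXCL8, NFKB1 and NFKBIA), against 0.502% of all genes. Because the string was chosen after sequences of these genes were read, that contrast follows from the choice and is no sign of enrichment. The IL6 match GGGATTTTCC began 73 bases before the start. In CXCL1, the match GGGAATTTCC began 79 bases before the start, and in NFKBIA the same letters were found on the opposite strand, 81 to 72 bases before it. TNFAIP3 had a pair of matches on the opposite strand, within 67 bases of the start. In CXCL8 no consensus match was found in this window, and GGAATTTCC began 91 bases before the start. A match is a run of letters and not a measured binding site. IL6 and CXCL1, which were close to 0 in every library, and NFKBIA, which was not, all carried the motif.

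The 3 libraries held 10683037, 11397407 and 8887854 counts. Replicate 3 stood apart: 6.25% of its counts came from mitochondrially encoded genes, against 4.11% and 3.83% in replicates 1 and 2, and genes with low GC content were higher in it. Markers of adrenergic neuroblastoma cells were present, with 7 of 8 reaching 10 counts in each library and a summed level of 3236 to 3537 CPM (counts per 1000000 of the scaled library total), although TH, which encodes tyrosine hydroxylase, had 0 counts in each. Of 8 macrophage markers, 1 (CD14, with 25, 21 and 14 counts) reached 10 counts in every library, LYZ and AIF1 were at 0, and the summed level was 2.37 to 3.37 CPM. No endothelial marker of 5 reached 10 counts in every library, and their sum was 0.113 to 0.263 CPM. Of 7 fibroblast markers, 6 reached 10 counts in every library, with a sum of 400.2 to 444.0 CPM that was mostly COL3A1 (316 CPM). Of 8 markers of the mesenchymal neuroblastoma state, 7 did, with a sum of 529 to 595 CPM that was mostly VIM (285 CPM) and FN1 (184 CPM). CD44 had 3.17 CPM, and PRRX1, the remaining marker, had 0 counts in each library. The part of these genes in the level of CCL2 was not tested.

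CCL2 (ENSG00000108691.9, chr17:34255218-34257203, plus strand, GRCh38) encodes the chemokine that attracts monocytes through the receptor CCR2. It had 4095 counts in replicate 1, 4461 in replicate 2 and 4586 in replicate 3, or 383, 390.4 and 518 CPM. Replicates 1 and 2 lay close together and replicate 3 was higher than both. The mean was 430.4 ± 75.9 CPM (SD, n = 3), and 387 CPM without replicate 3. By mean CPM, CCL2 ranked 274 among the 60709 genes. Per kilobase of its longest protein-coding transcript (741 bases), its level was 581 ± 102 CPM per kb, rank 70 of 58404 genes with a known length.

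IL6 (ENSG00000136244.12, chr7:22725884-22732002, plus strand) encodes interleukin 6, a cytokine of inflammation. It had 1 count in replicate 1 and 0 in replicates 2 and 3. The upper limit at 0 counts, taken as 3 counts, was 0.263 CPM in replicate 2 and 0.339 CPM in replicate 3. CXCL1 (ENSG00000163739.5, chr4:73869393-73871242, plus strand), a chemokine for neutrophils, had 1, 1 and 0 counts. Over the 3 libraries together, with 30968298 counts, 1 IL6 count and 2 CXCL1 counts have 95% exact Poisson intervals of 0.0253 to 5.57 and 0.242 to 7.22 counts. Per length, CCL2 exceeded IL6 27082-fold (95% exact interval 4860 to 1069766) and CXCL1 9728-fold (2692 to 80335). These intervals cover counting error only, and since the genes were chosen for this contrast the ratios are a description.

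Overlapping or near-identical genes bear on counts this low. They were examined for the 10 members only, so low counts of other genes named here carry no such check. In GENCODE release 29, 20.7% of the exon bases of IL6 also lie in exons of other genes on the opposite strand. Those genes, AC073072.1 and STEAP1B, had 0 counts in each library and 1, 4 and 5 counts. Of the 50-base stretches of the CXCL1 transcript, 5.73% also occur in transcripts of CXCL2 or CXCL3. CXCL2 had 3, 4 and 4 counts and CXCL3 had 1, 0 and 0. No 50-base stretch of the CCL2, CXCL8 or IL6 transcript occurred in another gene. How reads matching several genes were counted is not given in the sources used here, so the split between CXCL1, CXCL2 and CXCL3 is uncertain.

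CXCL8 (ENSG00000169429.11, chr4:73740506-73743716, plus strand), which encodes interleukin 8, another neutrophil attractant, lay between these extremes. It had 86, 81 and 112 counts, or 8.04, 7.09 and 12.6 CPM in replicates 1, 2 and 3. As for CCL2, replicates 1 and 2 were close and replicate 3 was highest. The mean was 9.26 ± 2.97 CPM (SD, n = 3), and 7.58 CPM without replicate 3. Per transcript length, CCL2 exceeded CXCL8 by 94.2 to 127-fold within the libraries. This fold depends on the length used (transcripts of 741 and 1705 bases). Both genes have a coding length of 297 bases, and per coding length the fold would be smaller.

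**Figure D1:**
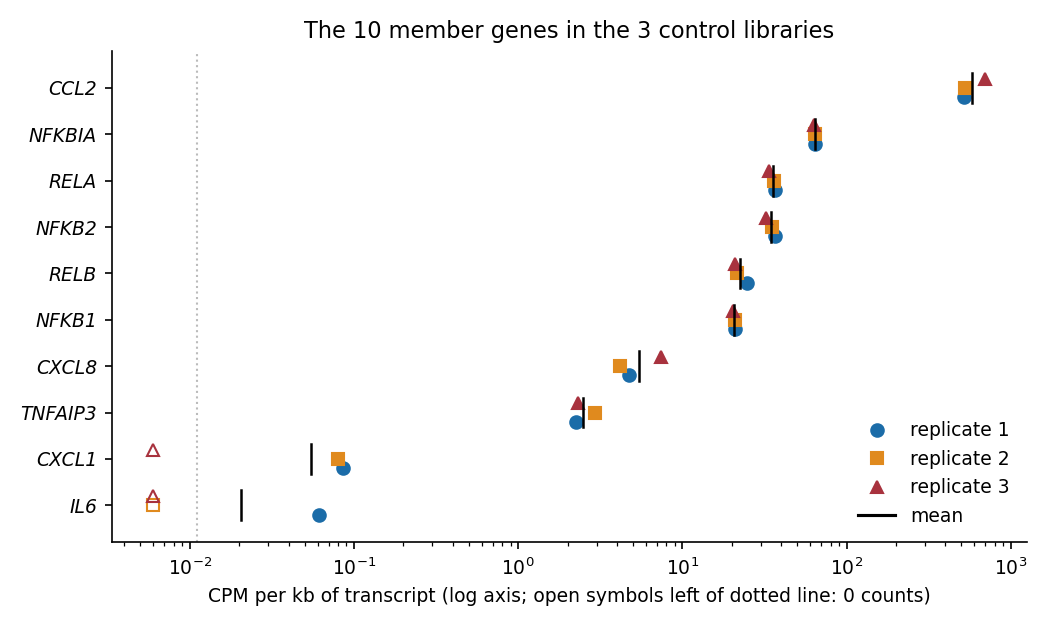
CPM per kilobase of the longest protein-coding transcript (log axis) for the 10 genes in control replicates 1, 2 and 3, with the mean as a black line; open symbols left of the dotted line stand for 0 counts. CCL2 lies near 581 CPM per kb, the NF-kB subunits and NFKBIA between 20.7 and 63.9, and IL6 and CXCL1 below 0.1 in every library.

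All 4 subunit genes among the members were measured, at mean levels between 51.3 and 118 CPM. RELA (ENSG00000173039.19, chr11:65653596-65663094, minus strand), the main activating subunit of the canonical branch, had 117, 114 and 108 CPM, a mean of 113 ± 4.92 CPM (SD, n = 3). NFKB1 (ENSG00000109320.13, chr4:102501329-102617302, plus strand), which encodes its usual partner as a precursor, had 84.9, 85.3 and 83.1 CPM. Its 3 values were nearly equal. NFKB2 (ENSG00000077150.20, chr10:102394110-102402529, plus strand), the precursor of the noncanonical branch, had 125, 120 and 110 CPM in replicates 1, 2 and 3. RELB (ENSG00000104856.14, chr19:45001430-45038198, plus strand), the partner of processed NFKB2, had 56.7, 49.4 and 47.9 CPM. All 4 genes were lowest in replicate 3, at GC contents of 50.1% (NFKB1), 57.1% (RELA), 62.4% (NFKB2) and 65.4% (RELB).

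Per length, the ratio of NFKB2 to RELA was 0.994, 0.974 and 0.947 in the 3 libraries, and that of NFKB1 to RELA was 0.563, 0.581 and 0.600. RELB stood at 0.669, 0.598 and 0.616 of RELA. Over the 3 libraries these ratios varied less than the level of CCL2, which was highest in replicate 3. Between replicates 1 and 2 alone they did not vary less, since CCL2 had 383 and 390.4 CPM there. A ratio within a library also cancels the scaling of that library, which a level does not. REL, the remaining subunit gene, known mainly from lymphoid cells, was much lower, with 9.59 ± 0.288 CPM, or 0.852 CPM per kb. The counts of all 5 subunit genes passed 10 in every library.

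Both feedback genes were measured, at different levels. NFKBIA (ENSG00000100906.11, chr14:35401511-35404749, minus strand), which encodes IkB alpha, had 101, 99.8 and 98.1 CPM, with a mean of 99.6 ± 1.31 CPM (SD, n = 3). Its coefficient of variation was 1.32%, or 2.84% with the GC trend removed, and counting error alone is 2.96 to 3.39% per library. TNFAIP3 (ENSG00000118503.15, chr6:137867188-137883312, plus strand), which encodes the ubiquitin-editing enzyme A20, had 114, 158 and 97 counts, or 10.7, 13.8 and 10.9 CPM. Here replicate 2 was highest and replicates 1 and 3 were close. Per length, NFKBIA exceeded TNFAIP3 by 28.7, 21.9 and 27.2-fold in replicates 1, 2 and 3, and RELA by 1.75, 1.78 and 1.86-fold.

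Ordered per length, CCL2 came first (581 CPM per kb), then NFKBIA (63.9), RELA (35.6), NFKB2 (34.6), RELB (22.4), NFKB1 (20.7), CXCL8 (5.43), TNFAIP3 (2.49), CXCL1 (0.0550) and IL6 (0.0204). The ranges of RELA and NFKB2 overlapped, as did those of RELB and NFKB1 and those of CXCL1 and IL6, although within each of the 3 libraries RELA was above NFKB2 and RELB above NFKB1. The other neighbours did not overlap. Per transcript length, CCL2 was 9.09 times the level of NFKBIA, the next gene. That ratio would be higher per coding length (297 and 951 bases) and lower per exon bases (1986 and 2373). The order of the 10 was unchanged when any 1 library was left out. With coding length in place of transcript length CXCL8 moved above RELB and NFKB1, and with all exon bases RELA and NFKB2 changed places.

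CCL2 and its neighbours on chromosome 17 differed widely. Of the 6 chemokine genes placed there (CCL2, CCL7, CCL11, CCL8, CCL13 and CCL1), CCL2 and the next gene, CCL7, 15.0 kb away, passed 10 counts in every library. CCL7, another monocyte attractant, had 60, 81 and 103 counts, or 5.61, 7.09 and 11.6 CPM, and was highest in replicate 3. CCL11, CCL8 and CCL1 had at most 2 counts in any library, and CCL13 had 0 in each. Per length, CCL2 exceeded CCL7 by 48.7 to 74.6-fold within the libraries. On chromosome 4, CXCL8 was the only 1 of 6 CXC genes (CXCL8, CXCL6, CXCL1, CXCL5, CXCL3 and CXCL2) to pass 10 counts in each library, and CXCL5 and CXCL6 had 0 in each.

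**Figure D2:**
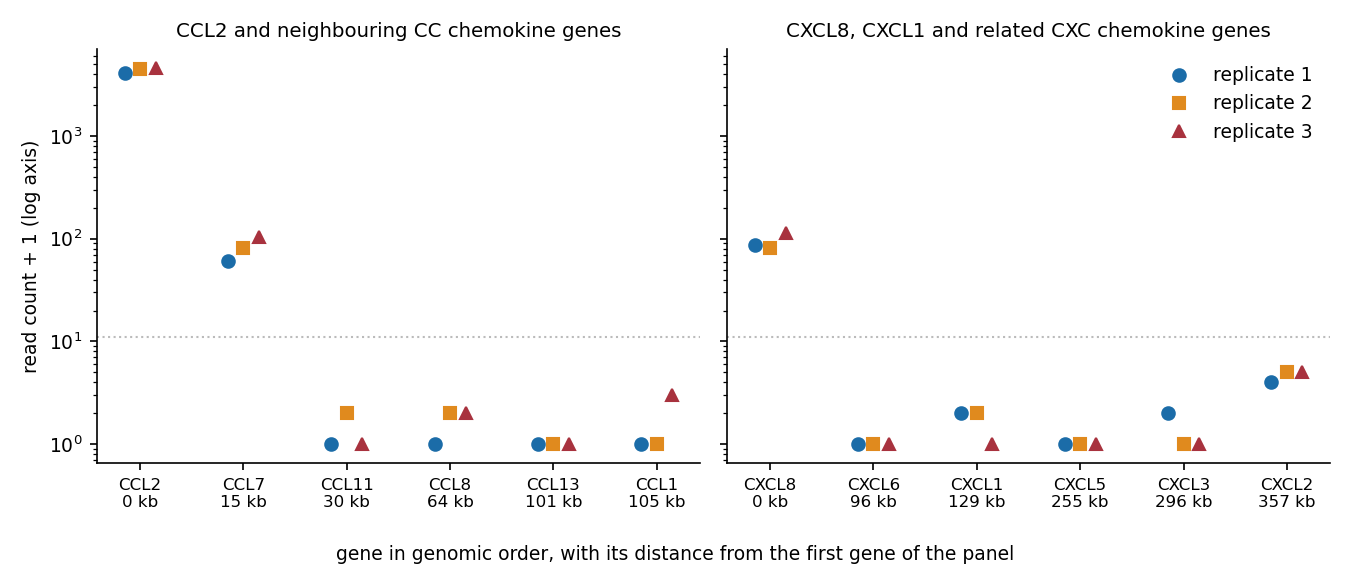
Read count plus 1 (log axis) per control replicate for 6 chemokine genes near CCL2 (left) and 6 CXC chemokine genes (right), in genomic order with the distance in kb from the first gene; the dotted line marks 10 counts. CCL2 has 4095 to 4586 counts, CCL7 and CXCL8 have 60 to 112, and the other 9 genes have at most 4.

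CCL2 supplied most of the chemokine reads. Of the counts of 34 chemokine genes, it held 82.5% in replicate 1 (95% Wilson interval 81.4 to 83.5%), 83.4% in replicate 2 (82.4 to 84.4%) and 84.0% in replicate 3 (83.0 to 85.0%). These intervals, too, cover counting error only. Since CCL2 makes up most of the total it is divided by, the share moves little even where CCL2 changes. Of the 34 genes, 8 passed 10 counts in every library and 10 had 0 counts in each. Among all genes, 22.9% passed that minimum, and among protein-coding genes of GENCODE release 29, 62.2%. After CCL2 the highest chemokine genes per length were CCL7 (10.0 ± 3.87 CPM per kb), CXCL12 (8.85 ± 0.647), CXCL8 (5.43 ± 1.74) and CX3CL1 (3.89 ± 0.219). CXCL12 is the ligand of CXCR4, and CX3CL1 is a membrane-bound chemokine of neurons. CXCL16, CCL21 and CCL5 were lower, with 4.50 ± 0.271, 2.69 ± 0.822 and 2.11 ± 1.25 CPM.

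Most of the chemokine receptor genes examined were at or near 0, and the receptors of CX3CL1 and CXCL16 were not among those examined. Of 14 chemokine receptor genes, 1 passed 10 counts in every library, CXCR4, with 8.98, 9.89 and 9.03 CPM. CCR2, the receptor of CCL2, had 0 counts in each library. CXCR1 and CXCR2, the receptors of CXCL8 and CXCL1, were at 0 as well, as were 7 further genes of that list. ACKR1 and ACKR2, decoy receptors that bind CCL2, had at most 2 counts in any library.

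Most genes for upstream ligands and receptors of the pathway did not reach 10 counts in every library. Ligand protein and signals from outside the cells were not measured. Of 7 upstream ligand genes, 1 passed 10 counts in every library. This was IL1B, which encodes interleukin 1 beta, with 57, 52 and 77 counts and 6.19 ± 2.20 CPM, highest in replicate 3. TNF had 12, 16 and 5 counts, LTB had 6, 6 and 1, and CD40LG had 0. Among 13 receptor genes, 5 passed the minimum. TNFRSF1A, the main TNF receptor, was the highest with 22.5, 22.4 and 30.7 CPM. Per length, TLR2 and TNFRSF1B came next, with levels of 3.35 ± 1.02 and 1.92 ± 0.250 CPM. IL1R1, the signalling receptor of interleukin 1, had 0, 1 and 1 counts.

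The cytoplasmic machinery was detected nearly throughout, whereas 62.2% of all protein-coding genes passed the minimum. All 15 adaptor and ubiquitin ligase genes, all 8 negative regulators, all 6 IkB genes and 9 of 10 genes of the IKK complex and its kinases passed 10 counts in every library; the exception was IKBKE, with 7, 3 and 4 counts. IRAK1, a kinase downstream of IL-1 and Toll-like receptors, had 198 ± 16.9 CPM, and RBCK1 and SHARPIN, subunits of the linear ubiquitin ligase, had 105 ± 7.08 and 43.9 ± 3.41 CPM. RNF31, the catalytic subunit of that ligase, named after its values were seen, was much lower, with 16, 23 and 16 counts and 1.77 ± 0.260 CPM. MAP3K7, the kinase TAK1 that activates IKK, had 112 ± 6.04 CPM, its partner TAB2 had 105 ± 17.7 CPM, and the IKK subunit gene CHUK had 67.8 ± 3.73 CPM. TAX1BP1 and TNIP1, which work with A20, had 229 ± 17.7 and 98.7 ± 6.82 CPM. TNIP2 had 45.1 ± 2.47 CPM. Among IkB genes, NFKBIA was followed by NFKBIB (33.7 ± 2.28 CPM), NFKBIE (28.0 ± 2.89) and NFKBIZ (22.1 ± 1.62).

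**Figure D3:**
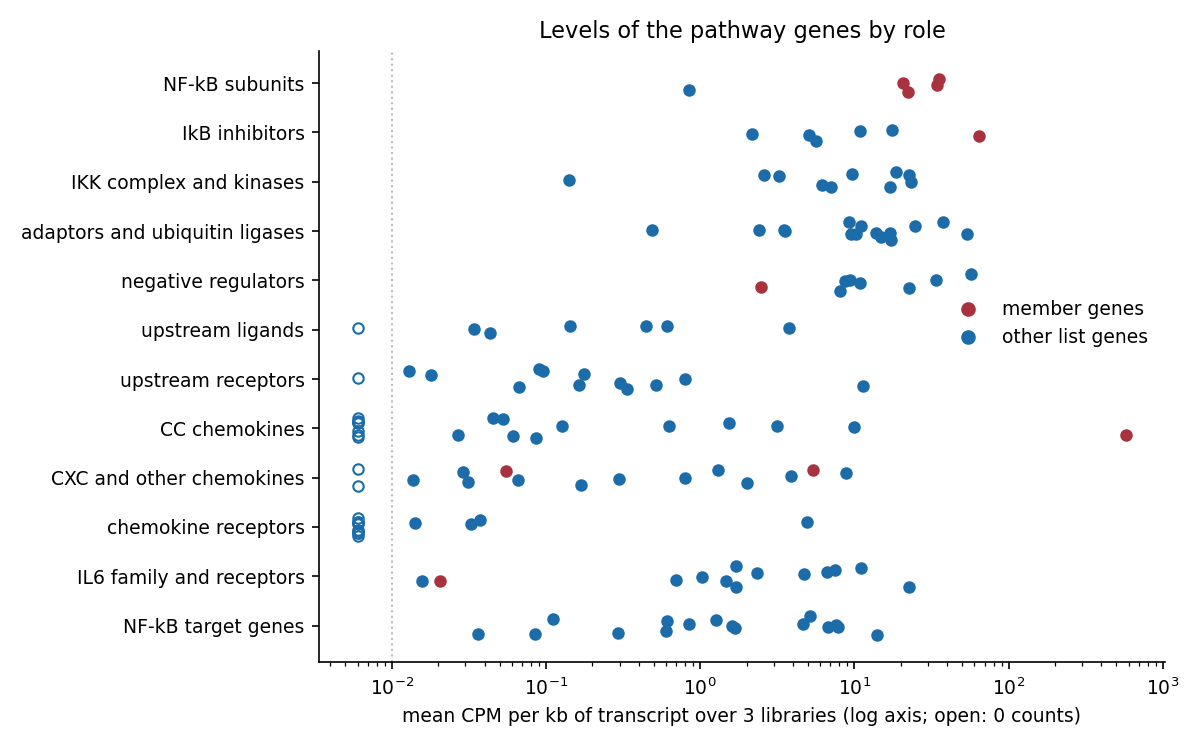
Mean CPM per kilobase of transcript over 3 libraries (log axis) for the genes of 12 lists, by role in the pathway; red points are the 10 member genes, and open symbols are genes with 0 counts in every library. Subunits, kinases, adaptors and negative regulators lie mostly between 1 and 100, ligands and chemokine receptors mostly below 1, and CCL2 stands at 581.

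Other target genes showed a wide range. Of 16, 13 passed the minimum, with a median over the list of 5.32 ± 1.85 CPM, against 10.1 ± 0.0745 CPM over protein-coding genes. ICAM1, an adhesion molecule for leukocytes, had 45.7 ± 3.57 CPM, SOD2, the mitochondrial superoxide dismutase, had 112 ± 8.85 CPM, and TNFRSF9, a TNF receptor family member, had 45.6 ± 0.397 CPM. CSF2, SELE and BCL2A1 had at most 5 counts in any library. In the IL6 family, IL6 and OSM were near 0, whereas 11 of 13 genes passed the minimum. LIF, a neuropoietic cytokine, had 24.9, 23.5 and 30.2 CPM, and IL11 had 5.36 ± 0.657 CPM. IL6ST, the shared receptor subunit gp130, had 99.6 ± 14.7 CPM, CNTFR had 46.7 ± 3.33, IL11RA had 22.4 ± 0.772, and IL6R, which binds IL6 itself, had 4.12 ± 0.318 CPM. Over all 12 lists, 82 of 141 genes passed the minimum, or 58.2%, against 62.2% of protein-coding genes.

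The 8 member genes that passed the minimum differed in spread. The coefficient of variation was 17.6% for CCL2, 32.1% for CXCL8, 14.8% for TNFAIP3, 9.17% for RELB, 6.70% for NFKB2, 4.34% for RELA, 1.39% for NFKB1 and 1.32% for NFKBIA. Most genes of like abundance varied less than CCL2. Among 743 nuclear genes with mean counts within 2-fold of CCL2, the median coefficient was 5.37%, and 6 were at least as variable. For CXCL8, 33 of 2907 such genes were at least as variable, and in both comparisons the trend with GC content was left in. Replicate 3 decided the value for CCL2 and CXCL8: without it the coefficients were 1.37% and 8.91%. That of TNFAIP3 was 1.83% without replicate 2, and that of RELB 2.14% without replicate 1. Without replicate 3 those of RELA, NFKB1, NFKB2 and NFKBIA were 1.81%, 0.352%, 3.27% and 0.600%. Counting error alone is 7.96 to 10.2% per library for TNFAIP3, 4.06 to 4.86% for RELB and 3.20 to 3.69% for NFKB1. Coefficients below the counting error say little about which replicate decided the spread.

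In replicate 3, CCL2 exceeded the mean of replicates 1 and 2 by 0.42 on the scale of log2(CPM + 1), and CXCL8 by 0.67. Over 10290 nuclear genes averaging 100 counts or more, the median of this difference was -0.01, and 235 genes had a larger rise than CCL2. For the other 6 members that passed the minimum, the difference lay between -0.03 for NFKB1 and NFKBIA and -0.16 for NFKB2. GC content differed as well, with 41.0% in CCL2 and 33.4% in CXCL8, against 49.5% (TNFAIP3) to 65.4% (RELB) in those other 6 members. After the trend with GC was removed, the difference was 0.28 for CCL2 and 0.38 for CXCL8, and 332 genes had a larger rise than CCL2. For RELA, RELB, NFKB1, NFKB2 and NFKBIA it was then 0.03, 0.12, 0.00, 0.04 and 0.06, so the negative sign was not kept, while TNFAIP3 stayed at -0.11. The values of CCL2 were then 407, 392 and 486 CPM, so replicate 3 was still highest, and those of RELA, NFKB1, NFKB2 and NFKBIA had a coefficient of variation of at most 2.84%. The coefficient was then 11.7% for CCL2, 20.9% for CXCL8, 14.5% for TNFAIP3 and 6.57% for RELB.

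Some other genes of the lists were highest in replicate 3 and some were not. The difference was 0.79 for CCL7, 0.71 for IL1B, 0.95 for PTGS2, which encodes cyclooxygenase, 0.62 for IER3 and 0.43 for TNFRSF1A. With the GC trend removed these were 0.63, 0.68, 0.70, 0.75 and 0.57. CXCL14 differed by 1.21, from 18, 15 and 42 counts. ICAM1 and SOD2 differed by 0.18 each, and TNFRSF9 and IRF1 by 0.01. CCL5 went the other way, with 35, 26 and 7 counts, as did NFKBID (-0.54), TNF (-0.53), TAB1 (-0.42) and MAP3K14 (-0.34). With the GC trend removed these 4 were -0.35, -0.41, -0.23 and -0.19. PTGS2, IER3, CXCL14, CCL5, NFKBID, TAB1, MAP3K14 and IRF1 were chosen after their values were seen. Of the 13 detected target genes 7 were highest in replicate 3, or 10 with the GC trend removed, against 38.6% and 38.2% of the 13920 genes that passed the minimum. Marker lists moved with replicate 3 as well. Of the 7 detected markers of the mesenchymal neuroblastoma state, 6 were highest in it, also with the GC trend removed. Their list, mostly VIM and FN1, summed to 530, 529 and 595 CPM in replicates 1, 2 and 3. The fibroblast sum was highest in replicate 3 (416, 400.2 and 444.0 CPM), and the adrenergic sum (3537, 3424 and 3236 CPM) and the macrophage sum (3.37, 2.54 and 2.37 CPM) were lowest. The mitochondrial share was highest there too. The part of these markers and of that share in the differences was not tested.

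**Figure D4:**
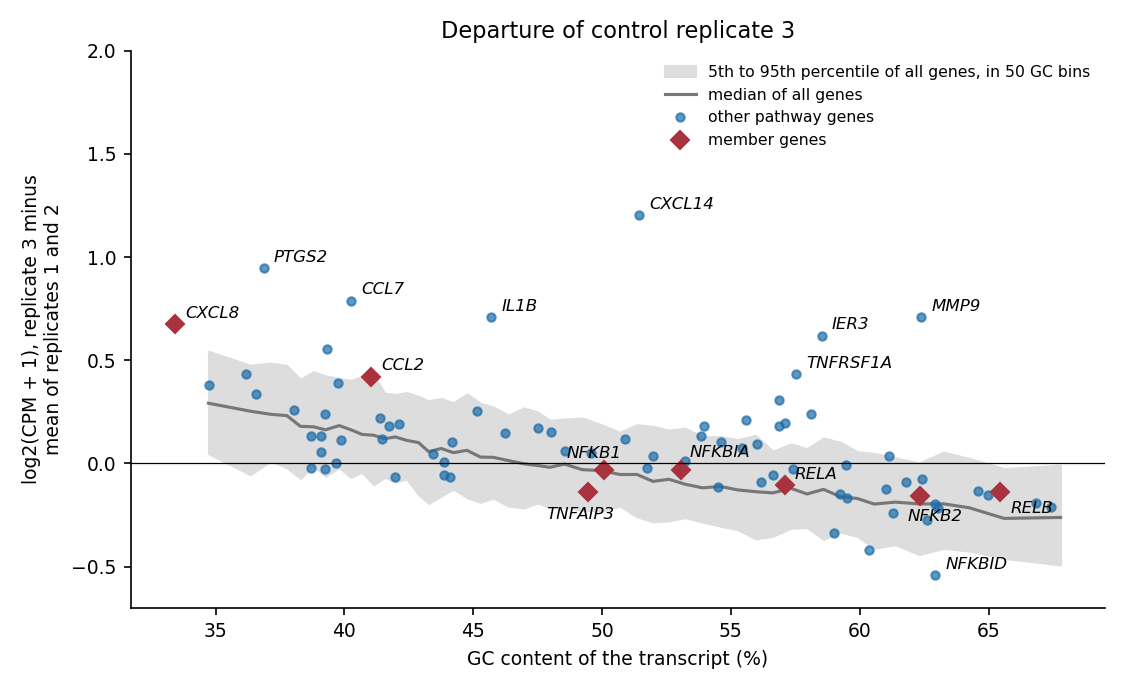
Difference in log2(CPM + 1) between control replicate 3 and the mean of replicates 1 and 2 against GC content of the transcript (%). The grey band spans the 5th to 95th percentile of 10290 nuclear genes averaging 100 counts or more, in 50 bins, and the line is their median. Points are pathway genes that passed 10 counts in each library, and CXCL8 and some others average fewer than 100. CCL2 (0.42) and CXCL8 (0.67) lie above the median line at low GC, and the subunit genes and NFKBIA lie near it. CCL2 is near the upper edge of the band.

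The 5 genes closest to CCL2 over the 3 libraries, by the root mean square difference in log2(CPM + 1) among 60708 genes, were B2M (0.03), MTATP6P1 (0.09), SCARB2 (0.10), MTPN (0.11) and KPNA2 (0.14). B2M, the light chain of MHC class I, had 389, 395 and 531 CPM. All 5 were highest in replicate 3, which their selection by likeness to CCL2 over the same libraries favours. Their GC contents were 39.1% (MTPN) to 46.0% (KPNA2), and the part of GC content was not tested. MTATP6P1 is a nuclear copy of a mitochondrial gene whose reads may be shared with the original. This likeness covers 3 libraries of 1 group and, by its construction, compares mainly levels.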

How the data were processed

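Messenger RNA libraries of SH-SY5Y cells were sequenced, and the authors deposited raw counts per Ensembl gene. The submitters' processing notes name fastp 0.21.1, STAR 2.7.7a, featureCounts and the build GRCh38. The annotation release and the use of strand are not given in the sources used here. Columns headed 4, 5 and 6 carry the sample numbers of the 3 controls in the labels. The 3 other columns match no label and were not used, so the planned comparison of peptide-treated with control samples by edgeR was not run.

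Of 60709 genes, 60480 had a symbol, and SOD2 was named from GENCODE release 29. CPM used TMM factors (edgeR 4.0.16, R 4.3.3), from totals of 8887854 to 11397407 counts. Levels between genes were compared per kilobase of the longest protein-coding transcript of GENCODE release 29. A gene passed the minimum with 10 counts or more in each library. The GC trend was each library's median deviation from gene means, within 50 GC bins. Its removal was tested on simulated data. Python 3.11.15, pandas 2.3.3 and scipy 1.17.1 were used. The members, gene lists and tests were chosen with earlier results of these data known. By rule, all members, the 3 genes highest per length of each list, and the 5 genes most like CCL2 were named. Alternatives were other scalings, lengths and minimums, and leaving out each library.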

Additional observations from a re-analysis of the deposited data

How the results depend on the processing

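No paired analysis was possible because the headings of the columns fit 1 group alone. For the same reason no alternative of the peptide comparison was run. The length over all exon bases was an alternative added after the data were seen.

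The median level over the 10 genes, 67.9 CPM, became 71.2 CPM with mitochondrially encoded genes left out, a setting that shrinks every library total, and ranged from 66.4 to 69.2 CPM when 1 library was left out. The mean of CCL2, 430.4 CPM, ranged from 387 to 454 CPM when 1 library was left out. Its coefficient of variation, 17.6%, ranged from 1.37% without replicate 3 to 21.1% without replicate 2. The median coefficient over 8 genes, 7.94%, was 4.70% with the GC trend removed, and 2.54% (without replicate 3) to 7.81% (without replicate 2) with 1 library left out. RLE size factors and library size alone moved none of the 10 levels by more than 1 SD. The number of pathway genes at the minimum, 82 of 141, was 82 to 84 with 1 library left out. Depth limits IL6 and CXCL1, with at most 1 count in a library.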
